A study of Mus musculus with 6 samples.

Results

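Transcripts of 7 genes that mark B cells and plasma cells were compared between old and young mouse cochlear lateral wall by RNA sequencing. They were chosen from a list of 9 gene symbols by their presence in the deposited gene table. Blk, Cd22, Jchain, Cd79a, Cd79b, Ms4a1 and Mzb1 were present, among 17091 genes in all. The immunoglobulin constant genes Ighm and Igkc were not analysed here. The old group held 3 CBA/CaJ mice at the age of 2.5 years and the young group 3 CBA/CaJ mice at 2 months. CBA/CaJ is an inbred strain, no mutant allele or treatment is named for either group, and both cochleas of a mouse went into 1 sample. The lateral wall comprises the potassium-secreting stria vascularis and the fibrous spiral ligament behind it.

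B cells recognise antigen with a receptor made of a membrane immunoglobulin and the signalling pair CD79A and CD79B. Src-family kinases such as BLK and LYN start the signal inside the cell, and CD22 and other inhibitory receptors damp it. An activated B cell can become a plasma cell, which secretes antibody; there the J chain links IgM and IgA into polymers and MZB1 helps immunoglobulin to assemble in the endoplasmic reticulum. In the lateral wall, the best-known resident immune cells are macrophages around the strial vessels. Single markers are not exclusive to the lineage: in mice, Blk is also expressed by interleukin-17-producing gamma delta T cells, and Cd22 has been found on microglia of the aged brain.

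Old replicate 3 stood apart in Xist, with a normalised read count of 45.2, against 24382 to 29162 in the other 5 libraries; the labels give no sex. The source label of every sample names auditory nerve cells while the tissue label names the lateral wall, and 12 markers of stria and ligament were all found. Their summed normalised read counts were 1015877 to 1285525 in old and 1520420 to 1649265 in young libraries. Coch held the largest part, at 322028 to 728041 in old and 725083 to 821557 in young libraries. Slc12a2 overlapped, at 142357 to 194835 in old and 169519 to 181735 in young libraries. By the limma fit described below, 2 of the 12 fell (Otos and Atp1b2), where 2.55% of all genes fell. The call of Atp1b2 was lost without old replicate 1 or any 1 young library. Libraries held 37577315 to 39103398 recovered reads in old and 37055355 to 38179961 in young mice. A normalised read count is a gene's reads divided by the size factor of the library, so that it is close to a number of reads.

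Promoter sequences matched 3 of the 7 genes by symbol, Cd22, Jchain and Cd79a, in a RefSeq table on GRCm38.p6 that holds 250 bases before and 50 after a transcription start. They are shown because Cd22 and Jchain rose in old mice and because Cd79a encodes the receptor's signalling chain. Each is written in the direction of transcription, and capitals mark the match to a searched motif. The Cd22 window is chr7:30878979-30879278 on the minus strand. It lies inside the span annotated for Cd22, 30865402 to 30880342, so its transcription start is not the outermost annotated one. Jchain is chr5:88527848-88528147 on the minus strand and Cd79a is chr7:24897247-24897546 on the plus strand.
Cd22: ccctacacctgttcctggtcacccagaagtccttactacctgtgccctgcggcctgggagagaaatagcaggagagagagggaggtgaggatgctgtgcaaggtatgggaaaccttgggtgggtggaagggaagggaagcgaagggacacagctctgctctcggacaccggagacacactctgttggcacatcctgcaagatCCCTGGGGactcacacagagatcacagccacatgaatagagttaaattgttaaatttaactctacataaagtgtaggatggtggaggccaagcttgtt
Jchain: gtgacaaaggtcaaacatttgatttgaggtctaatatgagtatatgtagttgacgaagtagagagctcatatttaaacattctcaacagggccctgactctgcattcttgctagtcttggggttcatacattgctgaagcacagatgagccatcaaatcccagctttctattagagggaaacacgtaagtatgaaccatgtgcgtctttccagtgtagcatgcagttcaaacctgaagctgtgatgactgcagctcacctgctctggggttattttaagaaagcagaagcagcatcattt
Cd79a: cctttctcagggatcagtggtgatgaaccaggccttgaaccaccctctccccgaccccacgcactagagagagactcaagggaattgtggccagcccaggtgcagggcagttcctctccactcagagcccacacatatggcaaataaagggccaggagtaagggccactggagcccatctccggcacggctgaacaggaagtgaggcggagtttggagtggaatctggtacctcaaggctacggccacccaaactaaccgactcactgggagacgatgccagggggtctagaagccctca

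Motifs named after factors of the B lineage were searched on both strands, namely the octamer ATGCAAAT, the EBF1 core CCCNNGGG and the PU.1 core GAGGAAGT. The only match in these 3 windows was 1 EBF1 core in Cd22, at bases 203 to 210. In all 32851 promoter windows of the table, 13.7% held the EBF1 core, 1.74% the octamer and 3.2% the PU.1 core. The G and C content was 52.3% in the Cd22, 42.3% in the Jchain and 58.3% in the Cd79a window, against a median of 52.7% over all windows. These are matches of letters and were not tested against binding.

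Transcripts of the kinase Blk, the inhibitory receptor Cd22 and the plasma cell gene Jchain were higher in old lateral wall, and those of Mzb1 overlapped between the groups. By the fit of group differences across all genes (limma on log2(value + 1), Benjamini-Hochberg adjusted p under 0.05), 3 of the 7 genes rose, where 2.71% of all 17091 genes rose and 2.55% fell. Of the 7, 0 fell by limma, edgeR or DESeq2, or at an unadjusted limma p under 0.05. In 6 of the 7 every old library lay above every young library, the exception being Mzb1, and the same held for 13.2% of all genes. The median log2 fold change, old minus young, was 2.05 over the 7 genes and 0.00 over all genes. That median is the value of Ms4a1, a gene with 14 reads in old and 1 in young libraries. The log2 fold change of Ms4a1 was 4.27 with 0.1 and 0.48 with 10 added in place of 1. In bulk tissue, more cells of a type and more RNA per cell cannot be told apart.

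**Figure D1:**
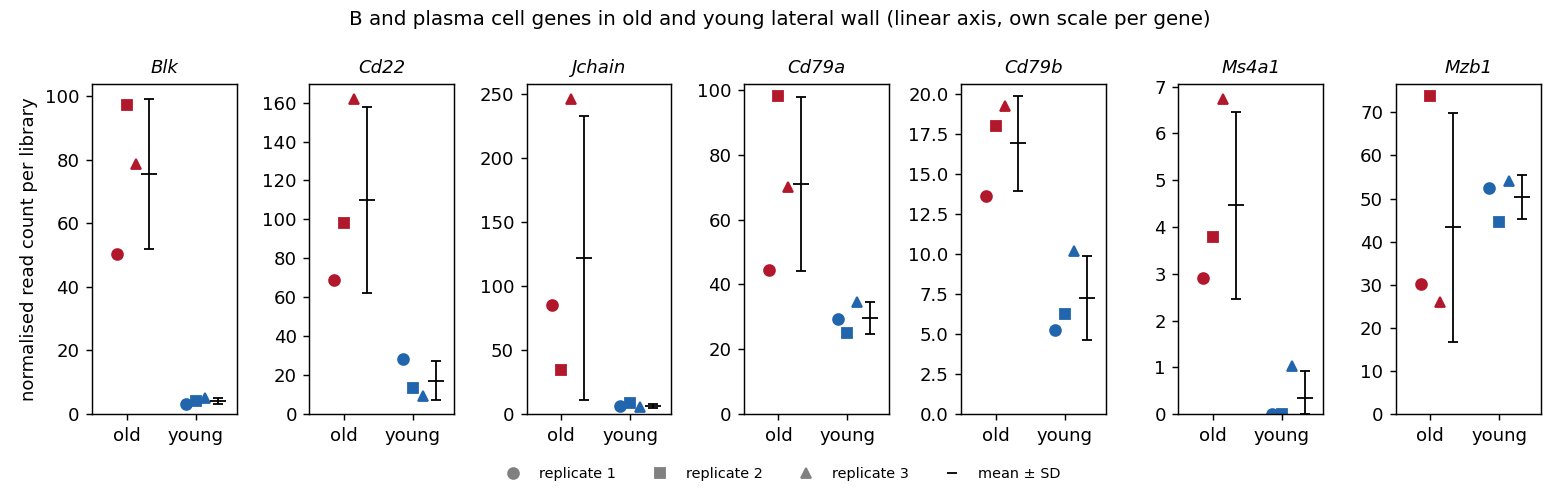
Normalised read count of each of the 7 genes in every library, on a linear axis with its own scale per gene, for old mice (red, left) and young mice (blue, right). Symbols give the replicate number, and the bars give the mean ± SD of 3 mice. Blk, Cd22, Jchain, Cd79a, Cd79b and Ms4a1 do not overlap between groups, whereas Mzb1 does.

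Blk is a Src-family kinase of the B cell receptor pathway. Its normalised read counts were 50.4, 97.4 and 78.8 in old replicates 1, 2 and 3, and 3.15, 4.15 and 5.11 in young replicates 1, 2 and 3. All old libraries were far above all young ones, with the highest value in old replicate 2. The mean was 75.5 ± 23.7 in old and 4.13 ± 0.979 in young mice (SD, n = 3 each). The log2 fold change was 3.87 ± 0.40 (SE), with a 95% interval of 2.97 to 4.76 and a limma adjusted p of 0.00177. Blk was the 1 gene of the 7 that was called without each of the 6 libraries in turn, with adjusted p of 0.00271 to 0.0116. The old libraries held 237 Blk reads and the young 12, a ratio of 18.3 whose 95% counting limits are 10.3 and 35.9. Blk lies on chromosome 14 from 63372836 to 63417037 (GRCm38), and no other annotated gene overlaps it.

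Cd22 encodes a sialic-acid-binding receptor that restrains B cell receptor signalling. Its normalised read counts were 68.8, 98.3 and 162 in old replicates 1, 2 and 3, and 28.3, 13.5 and 9.19 in young replicates 1, 2 and 3. The lowest old library stood at over 2 times the highest young library. The log2 fold change was 2.68 ± 0.46 (SE; 95% interval 1.64 to 3.72; limma adjusted p = 0.0148). Leaving out young replicate 2 or 3 ended the call, at adjusted p of 0.062 and 0.0616, and the 6 runs that each omit 1 library spanned 0.0145 to 0.062. With old replicate 3 omitted, which had the most Cd22 and little Xist, the log2 fold change was 2.35 and the adjusted p 0.0444. Cd22 lies on chromosome 7 from 30865402 to 30880342, and its reads are uncertain because Gm29439 overlaps it on the opposite strand and the counting is not stated to use strand.

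Jchain encodes the joining chain of polymeric antibodies, a product of antibody-secreting cells. Its normalised read counts were 85.3, 34 and 246 in old replicates 1, 2 and 3, and 6.29, 8.3 and 5.11 in young replicates 1, 2 and 3. The old libraries were all higher than the young but spread widely, old replicate 3 being the highest and old replicate 2 the lowest. The mean was 122 ± 111 in old and 6.57 ± 1.61 in young mice. The log2 fold change was 3.61 ± 0.64 (SE; 95% interval 2.16 to 5.06; limma adjusted p = 0.0178). Omitting any 1 young library ended the call, at adjusted p of 0.0586, 0.0598 and 0.0827 without replicates 1, 2 and 3, and 0.0022 to 0.0827 over all 6 runs. Its fold change on the log2 scale was 2.88 without old replicate 3 and 4.29 without old replicate 2. Jchain lies on chromosome 5 from 88519809 to 88527891 with no overlapping gene.

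Jchain, at 85.3, 34 and 246 in old replicates 1, 2 and 3, had the order of the summed marrow and blood transcripts. Among the stria and ligament markers, Slc12a2 had the same order over a narrower range, with 165707, 142357 and 194835 in old replicates 1, 2 and 3. Coch had another order, with 437868, 728041 and 322028. A list of 14 neutrophil and marrow genes summed to 6233, 1038 and 12389 normalised read counts in old replicates 1, 2 and 3, and to 454 to 675 in young libraries, and limma called 3 of the 14 higher (Csf3r, Lcn2 and Elane). EdgeR called 10 of the 14 higher and DESeq2 13, and 13 had an unadjusted limma p under 0.05. Over all genes, limma called 2.71% higher and edgeR 2.76%, and DESeq2 called 1819 of 17091 in either direction. The share of all genes at an unadjusted p under 0.05 was not counted. Csf3r lost its call without young replicates 2 or 3, Lcn2 without any 1 young library and Elane without any library but old replicate 2. A list of 11 erythroid genes summed to 22102, 7241 and 43640 in old replicates 1, 2 and 3 and to 2969 to 5066 in young libraries. Limma called 0 of these 11, whereas 9 had an unadjusted p under 0.05, edgeR called 4 and DESeq2 8. Epb42, a red cell membrane gene, was at 0 in old replicate 2 and in young replicates 1 and 2. In Blk, Cd79a and Mzb1, by contrast, old replicate 2 was the highest old library. The part of marrow and blood in these values was not tested.

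The receptor's signalling chains and the surface marker Ms4a1 were higher in each old library without passing the threshold. Cd79a had normalised read counts of 44.6, 98.3 and 70.1 in old replicates 1, 2 and 3, and 29.4, 24.9 and 34.7 in young replicates 1, 2 and 3. Its groups did not overlap, and old replicate 2 was the highest. Cd79a differed by 1.17 ± 0.35 on the log2 scale (SE; 95% interval 0.39 to 1.96; limma adjusted p = 0.0904). It passed without old replicate 1, the lowest old library (adjusted p = 0.0423, range over runs without 1 library 0.0423 to 0.254). Cd79a lies on chromosome 7 from 24897381 to 24902197.

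Cd79b, the partner of Cd79a, stood at 13.6, 18 and 19.2 normalised read counts in old replicates 1, 2 and 3, and at 5.25, 6.22 and 10.2 in young replicates 1, 2 and 3. The groups did not overlap. The log2 fold change of 1.16 ± 0.44 (SE; 95% interval 0.17 to 2.14) was close to that of Cd79a, with a limma adjusted p of 0.168. Ms4a1, which encodes the B cell antigen CD20, had 3, 4 and 7 reads in old replicates 1, 2 and 3, and 0, 0 and 1 read in young replicates 1, 2 and 3. The groups did not overlap, but the counts were near the limit of detection. The ratio over the groups was 13, with a 95% counting interval of 1.97 to 548, and the limma adjusted p was 0.127. The gene 4930526L06Rik overlaps Ms4a1 on the opposite strand and had normalised read counts of 0.97 to 3.84 in old and 3.06 to 3.15 in young libraries, so the reads of the pair are uncertain. Cd79b lies on chromosome 11 from 106311341 to 106314762 and Ms4a1 on chromosome 19 from 11249675 to 11266241.

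Mzb1, which encodes a chaperone-like protein of the endoplasmic reticulum in marginal zone B cells and plasma cells, overlapped between the groups. Its normalised read counts were 30.1, 73.8 and 25.9 in old replicates 1, 2 and 3, and 52.5, 44.6 and 54.1 in young replicates 1, 2 and 3. Old replicate 2 lay above the young libraries and the other old libraries below them. The log2 fold change was −0.37 ± 0.40 (SE; 95% interval −1.28 to 0.54; limma adjusted p = 0.657). Mzb1 lies on chromosome 18 from 35647267 to 35649367. A gene annotated as SPATA24 overlaps it on the same strand, so its reads are uncertain. The symbol Spata24, in that spelling, was not listed as overlapping Mzb1. It had normalised read counts of 279, 320 and 257 in old replicates 1, 2 and 3 and of 339 to 370 in young libraries.

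Levels of different genes were compared per kilobase of annotated exon. In old mice Cd79a (48.7 ± 18.5 normalised reads per kilobase, SD, n = 3) and Jchain (48.4 ± 43.9) had the highest means, followed by Mzb1 (35.6 ± 21.8), Blk (28 ± 8.77), Cd22 (21.8 ± 9.48), Cd79b (11.8 ± 2.07) and Ms4a1 (0.723 ± 0.323). The old values of neighbours in this order overlapped as far as Cd22; Cd79b, at 9.49 to 13.4, lay below Cd22, at 13.7 to 32.2, and Ms4a1 below Cd79b. In young mice the order was Mzb1 (41.5 ± 4.18 normalised reads per kilobase), Cd79a (20.4 ± 3.38), Cd79b (5.05 ± 1.84), Cd22 (3.37 ± 1.99), Jchain (2.61 ± 0.641), Blk (1.53 ± 0.363) and Ms4a1 (0.055 ± 0.0953). There, Cd79b overlapped Cd22 and Cd22 overlapped Jchain, and the other neighbours did not overlap.

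**Figure D2:**
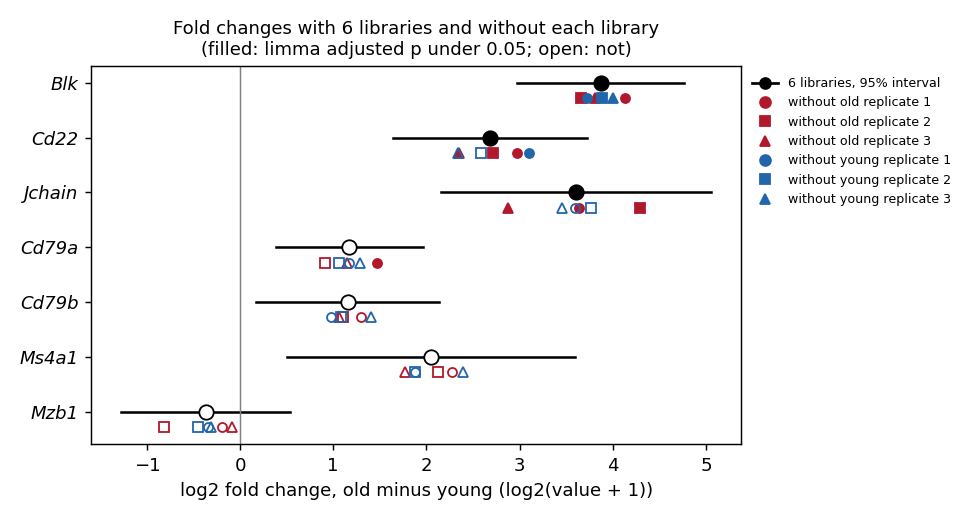
Log2 fold change, old minus young, of the 7 genes with its 95% interval from 6 libraries (black) and without each old (red) or young (blue) library; filled symbols have a limma adjusted p under 0.05. Blk is filled in every run, Cd22 and Jchain lose the call without single young libraries, and the interval of Mzb1 spans 0.

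Calls by other tests differed in Cd79a. The edgeR quasi-likelihood test on recovered reads called Blk, Cd22 and Jchain, 3 of 7, where it called 2.76% of all genes higher. By the authors' deposited table, 4 of the 7 have an adjusted p under 0.05 and a higher value in old mice, Blk, Cd22, Jchain and Cd79a, against 5.7% of all genes. The authors' deposited table gives folds of 18.3 for Blk, 6.47 for Cd22, 18.6 for Jchain and 2.39 for Cd79a, old over young.

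Other parts of the B cell programme were read from lists that also hold members described above. Not all of their genes are exclusive to B cells, and 9 of 12 macrophage genes rose in the same libraries. The part of macrophages in the values of these lists was not tested. Of 21 listed genes of the B cell receptor and surface, 12 were analysed and 4 rose: Fcgr2b, Cd22, Cd37 and Cd72. The inhibitory Fc receptor gene Fcgr2b, which macrophages express too, had normalised read counts of 456, 452 and 551 in old replicates 1, 2 and 3, against 175 to 213 in young libraries (log2 fold change 1.28 ± 0.17, SE; limma adjusted p = 0.00425). The tetraspanin gene Cd37 and the co-receptor gene Cd72 had log2 fold changes of 1.83 ± 0.35 and 1.36 ± 0.33. Their calls were less stable: that of Cd37 was lost without any 1 young library, and that of Cd72 without any 1 of the 6 libraries and by edgeR. Transcripts of a pair of receptors of mature B cells were near the limit of detection. The complement receptor gene Cr2 had 1.94 to 4.8 in old and 1.04 to 4.08 in young libraries, and the IgE receptor gene Fcer2a 0.97 to 3.84 in old and 2.1 to 6.13 in young libraries. The 12 genes had a median log2 fold change of 1.23.

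Of 17 signalling genes downstream of the receptor, 6 rose (Blk, Lyn, Blnk, Btk, Prkcb and Syk), with a median log2 fold change of 0.40 over the 17. The Src-family kinase gene Lyn had normalised read counts of 695, 639 and 779 in old replicates 1, 2 and 3, against 383 to 433 in young libraries (log2 fold change 0.80 ± 0.14, SE). Blnk, an adaptor, Btk, a kinase that myeloid cells also use, and Prkcb, a protein kinase C, had log2 fold changes of 0.97 ± 0.19, 2.44 ± 0.52 and 0.82 ± 0.18. Their limma adjusted p were 0.0139 for Lyn, 0.0226 for Blnk, 0.0302 for Btk and 0.0325 for Prkcb. Calls were lost for Lyn without young replicates 2 or 3, for Blnk without old replicates 1 or 3 or young replicates 2 or 3, for Btk without old replicates 1 or 3 or young replicates 1 or 3, and for Prkcb without any library but old replicate 2. The kinase gene Syk rose by 1.62 ± 0.39 on the log2 scale (SE), at an adjusted p of 0.049, and kept its call in the run without old replicate 2 alone.

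Of 11 transcription factor genes analysed out of 12 listed, 4 rose, with a median log2 fold change of 0.66. Ikzf3, which encodes the lymphocyte factor Aiolos, had normalised read counts of 52.4, 58.6 and 73 in old replicates 1, 2 and 3, against 5.25, 5.19 and 5.11 in young replicates 1, 2 and 3. It rose by 3.32 ± 0.35 on the log2 scale (SE, limma adjusted p = 0.00196), and its call held without each library. Pou2af1, a coactivator of B cells that works with octamer factors, had 18.4, 11.3 and 25.9 in old replicates 1, 2 and 3, against 2.04 to 4.2 in young libraries (2.10 ± 0.51, adjusted p = 0.0468). Ikzf1, of lymphoid and myeloid cells, and Spi1, which encodes PU.1, had 1.67 ± 0.36 and 1.49 ± 0.33. The call of Pou2af1 was lost by edgeR and without any library but old replicate 2, that of Ikzf1 without any library but old replicate 2, and that of Spi1 without old replicate 3 or any 1 young library. The early B cell factor gene Ebf1 had 3415, 4860 and 3272 in old replicates 1, 2 and 3, and 5195, 2488 and 4480 in young replicates 1, 2 and 3, at levels that were high in both groups and overlapped.

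Of 18 listed plasma cell genes 11 were analysed, and Jchain alone rose. The median log2 fold change of the 11 was 0.02. Several of them were high in both groups. Mean normalised read counts in old and young mice were 7182 and 6021 for Xbp1, 5522 and 6108 for Sec11c, and 2370 and 2333 for Ssr4. The part of plasma cells in these values was not tested. Sdc1, which encodes the plasma cell surface proteoglycan CD138 but is also expressed by epithelia, had −0.09 (95% interval −0.62 to 0.43). The secretory factor gene Xbp1 had 0.25 (−0.12 to 0.62), and the plasma cell regulators Prdm1 and Irf4 had 0.67 ± 0.37 and 0.38 ± 0.27 (SE). Of 9 analysed genes for signals that attract or sustain B cells, Cxcl13, the ligand of the B cell homing receptor CXCR5, rose, with 611 reads in the old and 3 in the young libraries. The ratio was 189, with 95% counting limits of 64.2 and 917, and its limma adjusted p was 0.000433. Tnfsf13b, which encodes the survival factor BAFF, had 50.4, 42.6 and 45.2 in old replicates 1, 2 and 3, and 24.1, 73.6 and 42.9 in young replicates 1, 2 and 3, with a log2 fold change of 0.11 (−0.79 to 1.01). The spread of the young libraries covered the old ones. Ltb, a lymphotoxin chain of lymphocytes, had 1.81 ± 0.52 (SE) with a limma adjusted p of 0.0825.

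**Figure D3:**
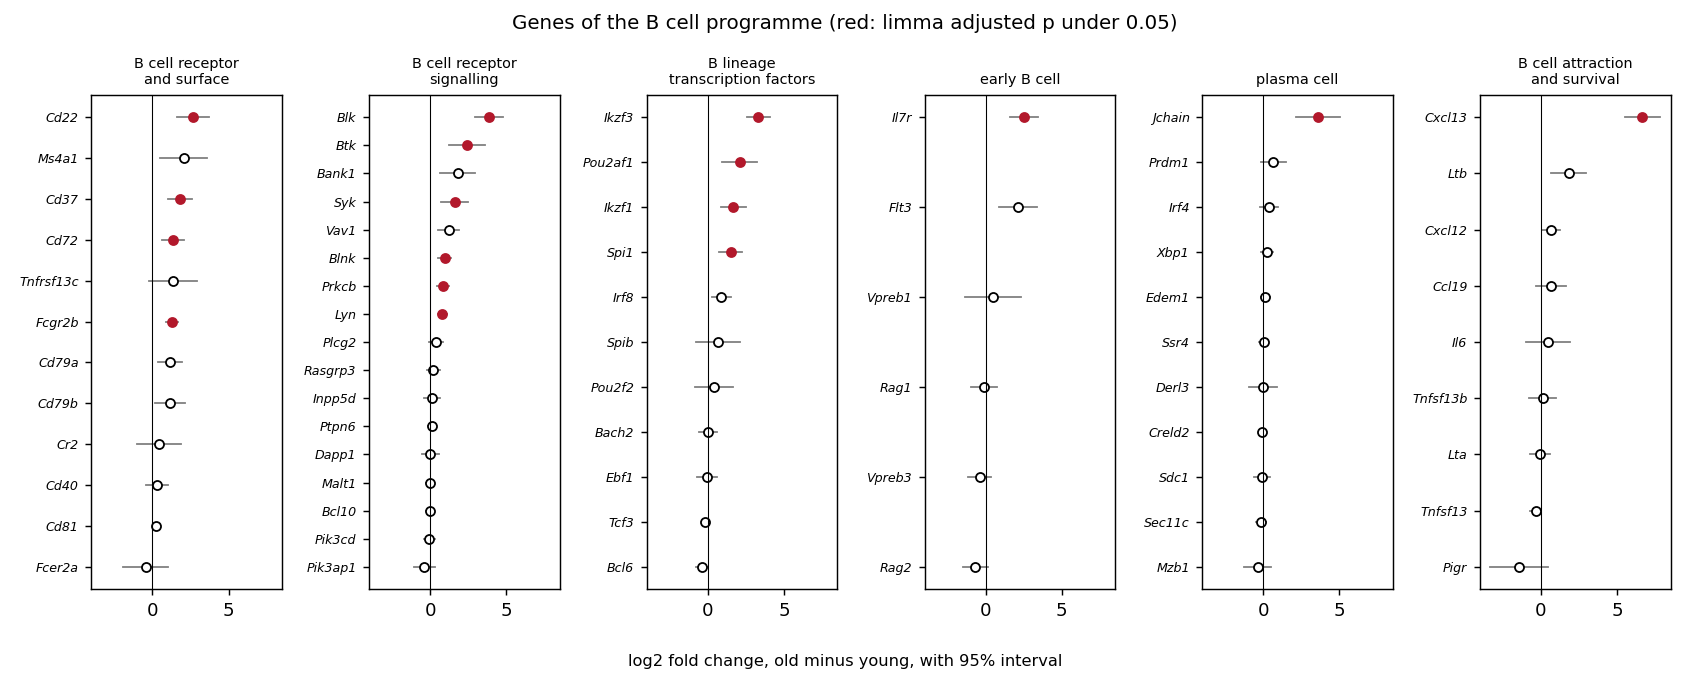
Log2 fold change, old minus young, with its 95% interval for every analysed gene of 6 lists of the B cell programme; red points have a limma adjusted p under 0.05. The plasma cell panel has Jchain at 3.61 and its other 10 genes between −0.37 and 0.67, and Cxcl13 stands at 6.66.

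Markers of other immune cells were read from further lists. Of 12 T cell genes, 4 rose (Pdcd1, Cd3g, Cd3d and Zap70, the last pair losing the call without old replicate 3 or young replicates 2 or 3), and the list summed to 474, 640 and 1207 normalised read counts in old replicates 1, 2 and 3 and to 218 to 243 in young libraries. Cd3d, a chain of the T cell receptor complex, had 11.6, 17 and 23.1 in old replicates 1, 2 and 3, and 2.1, 0 and 1.02 in young replicates 1, 2 and 3. Of 5 analysed genes listed for gamma delta T cells, Cd163l1 and Cxcr6 rose, by 4.48 ± 0.51 and 2.39 ± 0.42 on the log2 scale, the call of Cxcr6 being lost without young replicate 3. The list summed to 3987 to 4754 in old and 4546 to 5145 in young libraries, most of it from Sox13 and Maf. Of 12 macrophage genes 9 rose, led by Itgax, Cd68, Lyz2, C1qa, C1qb and Adgre1 (Adgre1 losing the call without young replicate 3), with sums of 25148 to 35720 in old and 7733 to 9231 in young libraries. Limma called 0 of 9 plasmacytoid dendritic cell genes, edgeR called 0 and DESeq2 1, and 4 had an unadjusted limma p under 0.05. The share of all genes at that unadjusted p was not counted. The 9 genes summed to 20158, 7938 and 8800 in old replicates 1, 2 and 3 and to 6287 to 6961 in young libraries. In old replicates 1, 2 and 3, Bst2 had 9655, 2855 and 2194 and Irf7 had 5902, 1227 and 1263. In young libraries Bst2 had 1719 to 1884 and Irf7 658 to 731. Ly6d was near the limit of detection, with 0.97, 5.67 and 2.88 in old replicates 1, 2 and 3 and 0 in young libraries (limma adjusted p = 0.192). The part of these cells in the values of Blk, Cd22 and Jchain was not tested.

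**Figure D4:**
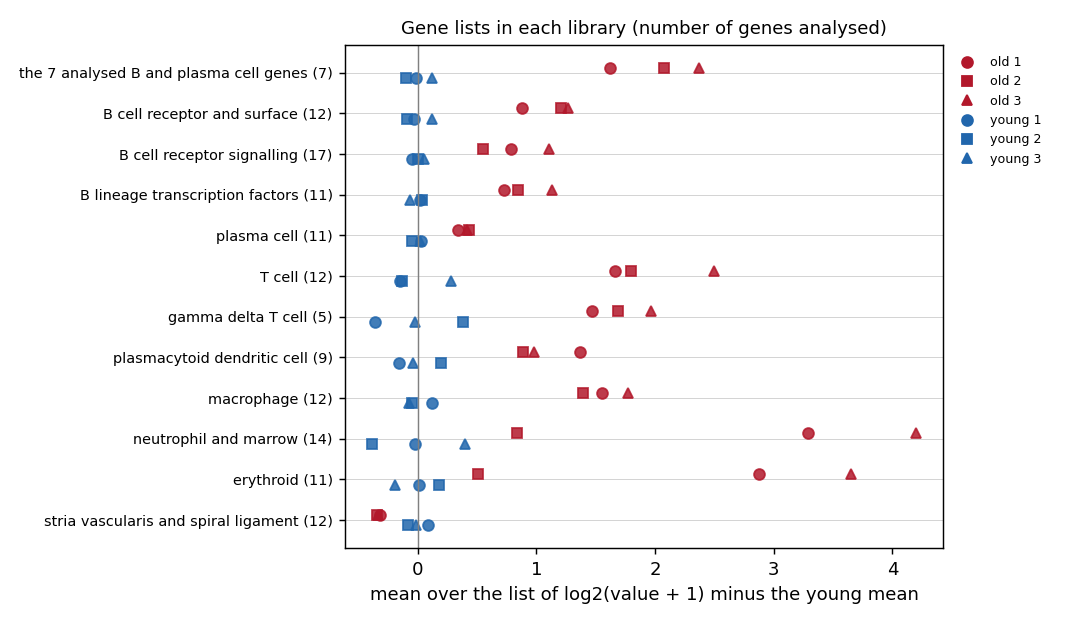
Mean over each gene list of log2(value + 1) minus the young mean, in log2 units, for each old (red) and young (blue) library, with the number of genes analysed in brackets. The 7 B and plasma cell genes stand at 1.62, 2.08 and 2.37 in old replicates 1, 2 and 3, while the neutrophil and marrow list stands at 3.29, 0.84 and 4.20.

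The genes most like each risen member were sought among 12736 named genes with a mean of at least 50, by Pearson correlation of log2 values over the 6 libraries. These correlations are descriptions, since any gene that separates old from young scores high. For Blk they were Itgax, Nars2, Scn4b, E2f6 and Rasal3, with r of 0.9943 to 0.9879. Itgax, an integrin of dendritic cells and macrophages, had 228, 420 and 550 normalised read counts in old replicates 1, 2 and 3, against 5.19 to 6.13 in young libraries. For Cd22 they were Camk2n1, Srd5a3, Gatm, Psma5 and Glipr1 (0.9976 to 0.9913), and for Jchain Ikzf1, Itgam, Nacad, Ccr2 and Cmpk1 (0.9961 to 0.9920). Ccr2, a receptor of monocytes, had 66.9, 37.8 and 191 in old replicates 1, 2 and 3, against 8.3 to 9.19 in young libraries, with old replicate 3 highest and old replicate 2 lowest as in Jchain.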

How the data were processed

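The lateral wall of 6 mice was sequenced as 6 libraries, and p-values refer to variation among mice. Whether old and young libraries shared a preparation or sequencing run was not tested. A run difference that went with age could not be told apart from age. The miRNeasy Mini Kit was used for RNA and a TruSeq RNA kit for libraries, per the labels' protocols. The submitters' processing notes list Partek, TopHat2, DESeq2 and mm10, with no versions; the annotation and strand setting are not given in the sources used here. Each deposited value is a signal, namely the reads of a gene over the size factor of that library. Dividing by the smallest step of a library gave whole reads, within 0.1, for 99.9% of values. The authors' deposited table gives for each gene a p-value, an adjusted p (missing for 332 genes) and a signed fold change, handled here as a score.

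Groups were compared with limma 3.58.1 in R 4.3.3 (trend and robust) on log2(value + 1), adjusted over 17091 genes, with no filter. Folds of genes with few reads come out too small on that scale. The edgeR (4.0.16) and DESeq2 (1.42.0) tests used recovered reads; the edgeR fit called 854 genes. The limma, edgeR and DESeq2 fits of old against young were checked on simulated data. Changes were planted only in genes with a mean of at least 50 reads, with the same variability for every gene. The finding of changes in genes with fewer reads was therefore not checked. No exact permutation test was run, since 3 against 3 mice allow no p under 0.1. Counting limits are exact 95% binomial intervals and cover counting error only. No pair of libraries was as close as counting noise alone would make them. Positions come from GENCODE M21 (GRCm38), which held 98.5% of the symbols.

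The members and lists were chosen with earlier results of these data known. All members were named, then up to 6 called genes of each list by smallest p, the defining genes of a list, and the 5 genes most like each called member at a mean of at least 50, without unnamed models. Some genes of the lists are not reported here and are not counted in them. Single values in other lists were added after their values were seen. The alternatives tried were quantile normalisation, limma with neither trend nor robust estimation, pseudocounts of 0.1 and 10, a minimum mean of 10, other tests, a replicate block, and the omission of each library.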

Additional observations from a re-analysis of the deposited data

How the results depend on the processing

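All 7 genes kept their direction under every alternative that gave a value; Ms4a1 had none at a mean of at least 10. Of the 7, 3 were called in the reported fit, 1 (Blk) without trend and robust estimation, and 1 to 4 without 1 library, Blk being alone without young replicates 2 or 3. The replicate block gave 2 (Blk and Jchain; Cd22 had an adjusted p of 0.0516), DESeq2 and the authors' deposited values gave 4. The count over all genes was 898, and 337 without trend and robust estimation, 1819 by DESeq2, 1818 by the authors' deposited values, and 406 with the replicate block. Without 1 library it was 230 to 1134: omitting young replicate 3 gave 230, young replicate 2 gave 288 and young replicate 1 gave 561. Same-numbered libraries did not deviate together (correlations of −0.244, −0.0965 and −0.0879), and differently numbered ones had −0.146 to 0.235. With 3 libraries per group, these correlations cannot exclude that the numbers pair the mice. Among 34 other called genes, 128 of 543 values under alternatives lost the call and 0 turned sign. The causes were not tested. Few reads limit Ms4a1, Cr2 and Fcer2a in both groups and Blk and Jchain in the young.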

Other observations

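Of 6 analysed genes of early B cell development, 4 overlapped between the groups. In the other 2 every old library lay above every young library, as held for 13.2% of all genes. Rag1, which encodes a subunit of the recombinase that assembles antigen receptor genes, had normalised read counts of 143, 222 and 81.7 in old replicates 1, 2 and 3, and 111, 212 and 143 in young replicates 1, 2 and 3. Its partner Rag2 had 47.5, 105 and 37.5 in old replicates 1, 2 and 3, and 85, 96.5 and 93.9 in young replicates 1, 2 and 3. Vpreb3, a gene of precursor B cells, had 22.3, 34 and 21.1 in old replicates 1, 2 and 3, and 31.5, 29 and 39.8 in young replicates 1, 2 and 3. Vpreb1, a chain of the surrogate light chain, had at most 4.8 in any library. Limma, edgeR and DESeq2 called 0 of these 4, and 0 had an unadjusted limma p under 0.05. In Rag2, old replicates 1 and 3 lay below every young library and old replicate 2 above them. Flt3, a receptor gene of early progenitors and dendritic cells, had 13.6, 18.9 and 54.8 in old replicates 1, 2 and 3, and 4.2, 4.15 and 6.13 in young replicates 1, 2 and 3, with no overlap. Its log2 fold change was 2.14 ± 0.56 (SE), with an adjusted p of 0.0621 by limma, 0.0617 by edgeR and 0.0157 by DESeq2; limma called it without old replicate 1 (adjusted p = 0.044, range without 1 library 0.044 to 0.174). Of this list, Il7r, the interleukin-7 receptor gene that T cells and innate lymphocytes also use, rose by 2.51 ± 0.40 on the log2 scale (SE, limma adjusted p = 0.0105), a call that was lost without young replicate 3 (adjusted p = 0.0536).

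Old replicate 2 had the highest old value of Rag1, Rag2, Vpreb3 and Mzb1 and of Derl3, a gene of endoplasmic reticulum quality control that secretory cells express. Derl3 had 213, 425 and 119 normalised read counts in old replicates 1, 2 and 3, and 228, 189 and 262 in young replicates 1, 2 and 3. The same library had the lowest old sums of the neutrophil and erythroid lists. These genes were picked after their values were seen.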
